A study of Homo sapiens with 2 samples.

Results

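The 3' ends of human protein-coding genes, where the pre-mRNA is cleaved and its poly(A) tail added, were examined for nucleosome positions in ARPE-19 cells. Members were the annotated 3' ends of the MANE Select transcripts, 1 curated reference transcript per gene, of GENCODE 44 protein-coding genes on chromosomes 1-22. Only ends more than 5 kb from any annotated start site were kept, so that the chromatin of promoters stayed out of the comparison. This left 7483 of 18191 transcripts (41.1%, 95% Wilson interval 40.4 to 41.9%), of which 1721 belonged to genes under 20 kb and 2162 to genes over 100 kb. The shortest member gene was 5017 bp long, since its own start site also had to be over 5 kb away. Short genes here are therefore those of 5 to 20 kb. Among all 7483 members, 5 ends were shared by 2 or more members, and 511 members had the end of another member within 2000 bp.

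ARPE-19 is a human epithelial cell line, established from the retinal pigment epithelium, the pigmented layer that supports the photoreceptors. Interphase cells in normal culture were lysed and treated with micrococcal nuclease. This enzyme digests linker DNA and spares the DNA on histones, and fragments of about the length that 1 nucleosome protects were taken from a gel and sequenced. The labels name 2 batches of this single group, with no treatment or control arm. The deposited data are 1 list of called positions that does not tell the batches apart, so no spread between samples could be measured.

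Cleavage and polyadenylation are directed by sequence in the nascent RNA. The poly(A) signal, AAUAAA or the variant AUUAAA, lies a short way before the cleavage site and is bound by the CPSF complex, while GU- and U-rich elements behind the site are bound by CstF. The DNA around 3' ends is rich in A and T, and runs of A and T are known to bend poorly around the histone octamer. Micrococcal nuclease also cuts A- and T-rich DNA readily, so a low count of protected fragments there can reflect the enzyme as well as the nucleosome.

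The sequences that mark these sites are shown for 9 members, because the low point of the nucleosome map, summed over all members, lay over them. Each is the last 30 bases of the transcript as DNA, read 5' to 3' on the gene's strand in hg38, and ends at the annotated 3' end. Capitals mark the poly(A) hexamer.
SPARC (chr5:151661096-151661125, minus strand): ggaAATAAAgcagagaactatcatggaaaa
COL4A1 (chr13:110148963-110148992, minus strand): ctAATAAAtttgtaagctttgcatacctta
ITGAV (chr2:186680872-186680901, plus strand): ctgtacAATAAAcataagcatatggtacca
SLC45A2 (chr5:33944623-33944652, minus strand): attaggtcAATAAAgagacaatgaccctaa
DSCAM (chr21:40010999-40011028, minus strand): cctgtacaaaAATAAAaaaattctacatta
DLG4 (chr17:7187187-7187216, minus strand): gacaacaattcaAATAAAtatagaaataca
HTRA1 (chr10:122514878-122514907, plus strand): ttgagctATTAAAgtacttcttacacattg
VEGFA (chr6:43786458-43786487, plus strand): tgtATTAAAgaatttaattctgatctcaaa
GRIA1 (chr5:153813840-153813869, plus strand): accgaatATTAAAtcactgtggatccatta

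In these 9 members the hexamer began between 17 bp (DLG4) and 27 bp (COL4A1) before the end. Over all members, AATAAA on the sense strand between -40 and -1 bp was found at 4973 ends (66.5%, 95% Wilson interval 65.4 to 67.5%). Of all members, 1132 (15.1%) had ATTAAA but no AATAAA, and 1378 (18.4%) had neither. Windows of 40 bp, taken at regular steps along the plus strand of chromosomes 1-22, held AATAAA in 3.70% and ATTAAA in 2.47% of cases. The distance from the start of AATAAA to the end had a median of 23 bp and quartiles of 20 and 26 bp. The base composition changed across the end. The last 50 bp before it held 36.7% A and 33.7% T, the 50 bp behind it held 24.9% A and 37.4% T, and GC content from -50 to +50 bp was 33.6%, against 43.5% between 1000 and 2000 bp away on both sides.

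Called nucleosome positions were scarce at the 3' end. From -50 to +50 bp there were 252 positions in all, a density of 0.337 positions per kb (95% Poisson interval 0.296 to 0.381, counting error only). The far flanks, from -2000 to -1000 and from +1000 to +2000 bp, held 15721 positions or 1.05 per kb (1.03 to 1.07). The gap, the log2 ratio of these densities, was -1.58 ± 0.38 (SD, n = 22 chromosomes), a density of 0.321 times the far flanks when all chromosomes were pooled. It was below 0 on 22 of 22 chromosomes (two-sided sign-flip permutation test over chromosomes, p = 1e-05, the smallest that 100000 draws can give; Benjamini-Hochberg adjusted p = 0.00011 over 11 comparisons). On single chromosomes it ran from -2.57 on chromosome 18, which had 2 positions in the gap, to -0.72 on chromosome 14, which had 11. Chromosomes are not biological replicates, so this test describes how uniform the gap was along the genome in this list and not how it would vary between cultures.

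By raw density over all members, the gap lay mainly before the end, over the poly(A) signal. In bins of 25 bp the lowest density was 0.208 per kb from -25 to 0 bp, with 39 positions. In bins of 10 bp it was 0.160 per kb from -30 to -20 bp, with 12 positions, a stretch that overlaps the distances at which AATAAA began. The lowest 25-bp bin differed by gene length. It was 0 to +25 bp in genes under 20 kb, with 11 positions, and -50 to -25 bp in genes over 100 kb, with 8. These small counts were not tested. The last 50 bp of the transcript held 0.235 per kb (95% Poisson interval 0.189 to 0.290) and the first 50 bp behind it 0.438 per kb (0.374 to 0.511). These intervals do not overlap, although no test of this difference was run. At ends with neither hexamer they did overlap, at 0.334 per kb (0.212 to 0.501) before and 0.421 per kb (0.282 to 0.604) behind. At ends with ATTAAA they overlapped as well, at 0.230 per kb (0.122 to 0.393) before and 0.318 per kb (0.188 to 0.503) behind. So did those of genes under 20 kb and of genes over 100 kb, while those of AATAAA ends, the largest signal class, did not. Counts in the smaller classes were low, so the overlap cannot tie the difference to the hexamer. Over all members, GC content was 29.6% in the last 50 bp and 37.6% in the first 50 bp behind. Relative to the density expected from GC content over 200 bp, these stretches were at 0.410 and 0.677 times. With GC content over 50 bp they were at 0.682 and 0.665 times. Density came back behind the end within 100 bp, from 0.299 per kb at 0 to +25 bp to 1.37 per kb at +75 to +100 bp.

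**Figure D1:**
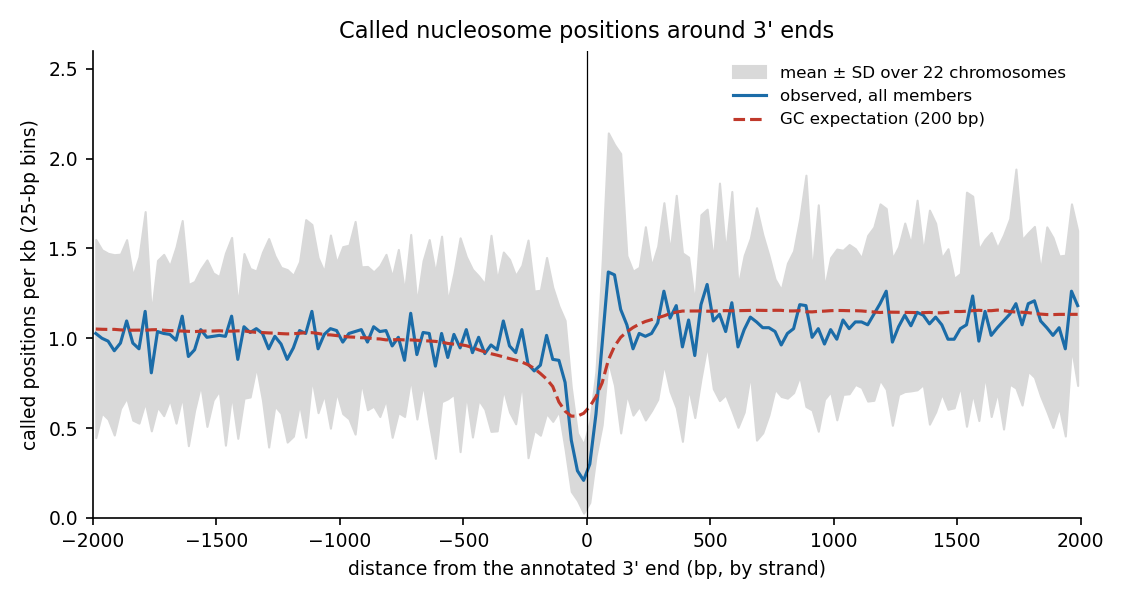
Called positions per kb in 25-bp bins (vertical axis) against the distance from the annotated 3' end in bp, with the transcript to the left of 0. The blue line is all 7483 members, the grey band the mean ± SD over 22 chromosomes and the dashed red line the density expected from GC content; the observed line drops to 0.208 per kb just before the end and rises to 1.37 per kb just behind it.

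Maxima were looked for from 50 to 500 bp on either side of an end or landmark. Behind the gap the highest 25-bp bin was +75 to +100 bp, with 256 positions and 1.37 per kb, 1.56 times the density expected from its GC content. Lower peaks stood at +300 to +325 bp (1.26 per kb, 1.12 times expected) and at +475 to +500 bp (1.30 per kb, 1.13 times expected), with low bins of 0.941 per kb at +175 to +200 bp and 0.903 per kb at +425 to +450 bp before them. Single bins far from the end came about as high, such as 1.26 per kb at +1200 to +1225 and at +1950 to +1975 bp, and these later peaks were not tested. The planned downstream flank, +100 to +300 bp, left out the highest bin and averaged over the falling side of the first maximum and the trough behind it. Its density of 1.08 per kb differed from the far downstream flank of 1.10 per kb by less than the spread over chromosomes, with a log2 ratio of -0.030 ± 0.25 (permutation p = 0.585, adjusted p = 0.643). A window of +50 to +150 bp, chosen after the profile was seen, gave a log2 ratio of 0.16 ± 0.32, above 0 on 15 of 22 chromosomes. Since it was placed on the highest bins, this is a description with no test.

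The maximum within 500 bp before the end was lower. The upstream flank, -300 to -100 bp, held 0.908 positions per kb against 1.00 per kb in the far upstream flank. Its log2 ratio was -0.11 ± 0.25 and 17 of 22 chromosomes lay below 0, which did not pass after adjustment (permutation p = 0.0472, adjusted p = 0.0865). The highest bin within 500 bp upstream was -350 to -325 bp, with 1.10 per kb, and bins further inside the gene reached 1.15 per kb. Set against its GC content the same flank was above expectation, at 1.14 times, and its GC-adjusted log2 ratio was 0.27 ± 0.24, above 0 on 21 of 22 chromosomes (permutation p = 1e-05, adjusted p = 5.5e-05). The direction on this side therefore turned with the correction for base composition.

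Over all members together, density was higher behind the gene than inside it. The far downstream flank held 1.10 positions per kb and the far upstream flank 1.00, a log2 ratio of 0.15 ± 0.18 that was above 0 on 21 of 22 chromosomes (permutation p = 3e-05, adjusted p = 0.00011). The near sides differed in the same direction, with 1.08 against 0.908 per kb and a log2 ratio of 0.23 ± 0.27 (above 0 on 17 of 22, permutation p = 0.00075, adjusted p = 0.00206). With the GC expectation the far sides no longer differed beyond the spread (-0.0083 ± 0.16, permutation test, adjusted p = 0.855), and the near sides turned to -0.19 ± 0.30 (permutation test, adjusted p = 0.0216). GC content was 43.2% in the far upstream flank and 43.9% in the far downstream flank, and 40.02% and 43.0% in the near flanks. Genes under 20 kb did not show the raw difference, with 1.09 per kb far downstream and 1.10 far upstream, and 1.14 and 1.15 in the near flanks. Genes over 100 kb held 1.05 and 0.914 per kb in the far flanks, and genes between these lengths 1.13 and 1.02. This split was not tested.

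Since the gap is poor in GC, its density was compared with that of sequence of the same GC content. Every base took the density that bases of like GC content, measured over the surrounding 200 bp, had across chromosomes 1-22, which set an expectation of 0.610 positions per kb in the gap. The observed density was 0.552 times this expectation. The GC-adjusted gap was -0.72 ± 0.39 (log2), negative on 20 of 22 chromosomes (permutation p = 1e-05, adjusted p = 5.5e-05). With GC content read from the 50 bp around each base, the observed density was 0.671 times expected and the adjusted gap was -0.41 ± 0.36, also below 0 on 20 of 22 (permutation p = 6e-05, adjusted p = 0.00022). The gap was thus smaller after correction for GC content, and smaller still with the narrower window. Whether the nuclease's own preference contributed was not tested, since no digest of naked DNA is among the samples used here.

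Members were also split by the GC content of the end itself, as a description with no test. Of 915 members with under 25% GC from -50 to +50 bp, none had a called position in that window, which allows up to 0.0403 per kb (upper 95% Poisson bound), and tiles of 100 bp with the same GC content held 0.0138 per kb genome-wide. For the 1723 members with 25 to 30% GC the density was 0.0522 per kb and 0.0581 in all such tiles, and for the 1921 members with 30 to 35% it was 0.172 beside 0.185. At 35 to 40% it was 0.442 beside 0.450, and at 40 to 45% it was 0.786 beside 0.929. In these bands the Poisson intervals at the 3' ends held the genome-wide value. In the 2 bands richest in GC they lay below it. The 459 members with 45 to 50% GC had 0.828 per kb (0.586 to 1.14) against 1.55, and the 421 members with 50% or more had 1.31 per kb (0.984 to 1.70) against 2.08, ratios of 0.534 and 0.627.

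**Figure D2:**
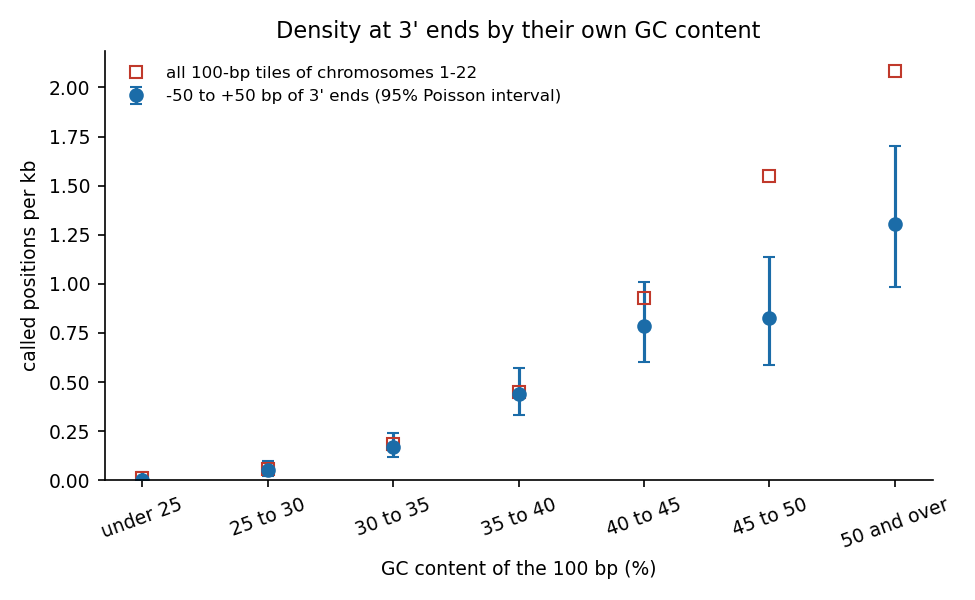
Called positions per kb (vertical axis) from -50 to +50 bp of the 3' ends, as blue points with 95% Poisson intervals, and in all 100-bp tiles of chromosomes 1-22, as open red squares, by GC content of the 100 bp in percent. The 2 sets lie close together up to 40% GC and separate in the 2 richest bands, where the ends held 0.828 against 1.55 and 1.31 against 2.08 per kb.

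Gene length went with the shape of the profile before the end. From -50 to +50 bp, genes under 20 kb had 65 positions (0.378 per kb, 95% Poisson interval 0.291 to 0.481) and genes over 100 kb had 57 (0.264 per kb, 0.200 to 0.342). The gap of long genes minus that of short genes was -0.36 ± 1.27 on the log2 scale, below 0 on 12 of 22 chromosomes, and did not pass (permutation p = 0.207, adjusted p = 0.316). Where ends were kept by another distance from start sites it passed, at -0.90 ± 1.47 for over 10 kb (permutation test, adjusted p = 0.0206) and -0.60 ± 1.17 for over 2 kb (permutation test, adjusted p = 0.0415). With all chromosomes pooled and nothing added to the counts, these 2 differences were -0.54 and -0.75. The over 10 kb setting kept only 446 ends of short and 1428 of long genes. The 0.5 added to each count weighs more in the smaller class, so the pass at over 10 kb cannot be told apart from an effect of this addition. The counts per chromosome were small in all of these splits, which the SD shows. From -100 to -50 bp, short genes were already back at 1.07 per kb, while long genes held 0.333 per kb. When the gap was measured from -100 to 0 bp, the difference was -1.10 ± 1.22, negative on 17 of 22 chromosomes (permutation p = 0.00041, adjusted p = 0.00102).

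In short genes density thus recovered closer to the end on the side of the transcript. Their highest bin within 500 bp upstream was -100 to -75 bp, at 1.46 per kb and 1.82 times the GC expectation; the bin at -1075 to -1050 bp had the same count, at 1.25 times expectation. In long genes the same bin held 0.407 per kb, 1.02 times expected. Base composition also differed: from -100 to -50 bp GC content was 40.1% in short genes and 33.6% in long ones. With the 200-bp GC expectation, a combination added after the data were seen, the difference from -100 to 0 bp was -0.59 and no longer passed (permutation p = 0.0368, adjusted p = 0.0645). Last exons also differed in length, over 3 kb in 26.3% of short and 44.2% of long genes, and their part in the difference was not tested.

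**Figure D3:**
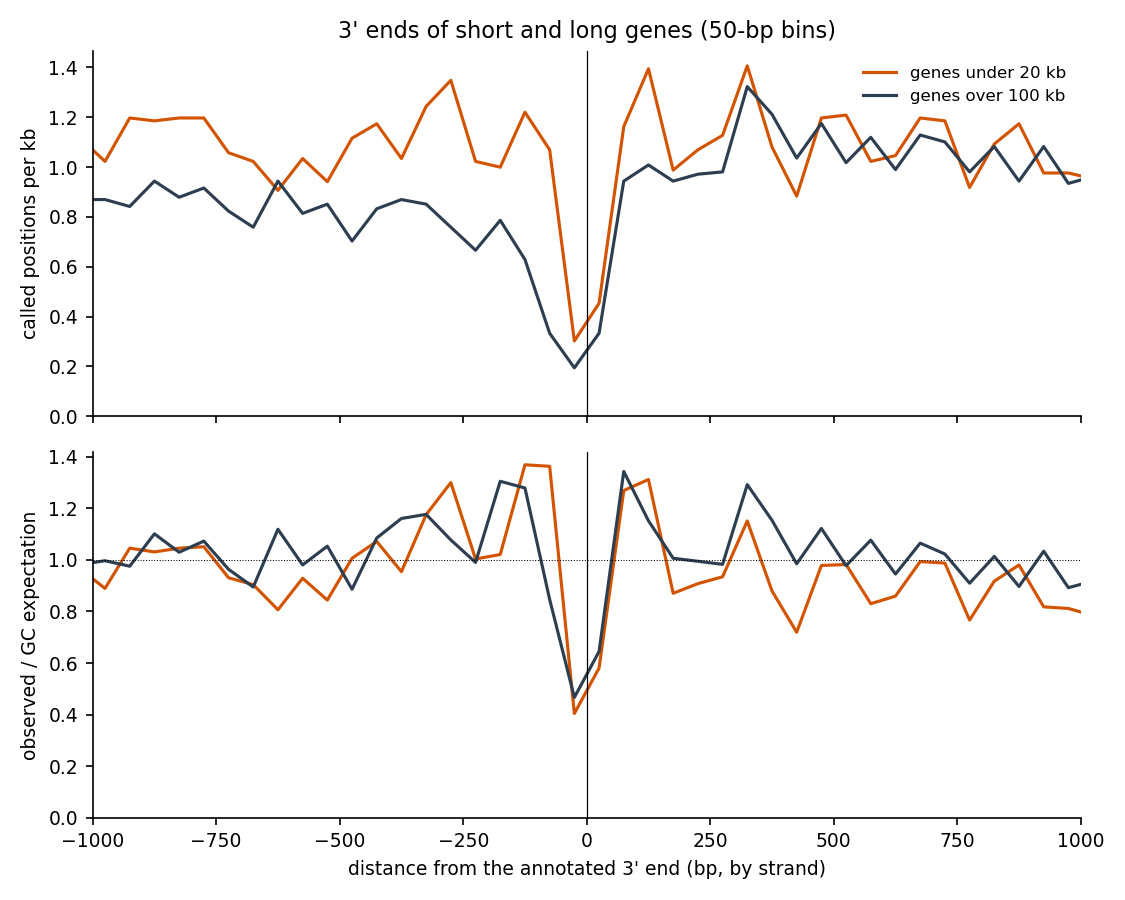
Called positions per kb (upper panel) and observed density over the GC expectation (lower panel, dotted line at 1) in 50-bp bins against distance from the 3' end in bp, for genes under 20 kb (orange) and over 100 kb (dark blue). From -100 to -50 bp short genes held 1.07 and long genes 0.333 positions per kb, and on both sides of the gap the GC-corrected curves rise above 1.

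Behind the end, the highest bin of short genes within 500 bp was +100 to +125 bp with 1.46 per kb, and long genes had 1.07 per kb there, 1.41 and 1.26 times the GC expectation. In long genes it was +300 to +325 bp, with 1.44 per kb. The difference of their downstream flanks was -0.13 ± 0.57 (permutation p = 0.29, adjusted p = 0.354), but with start sites over 10 kb away it was -0.40 ± 0.73 and passed (permutation test, adjusted p = 0.0364). The far flanks of long genes held 0.983 per kb and those of short genes 1.09 per kb, a log2 ratio of -0.12 ± 0.23 with 17 of 22 chromosomes lower in long genes (permutation p = 0.0181, adjusted p = 0.0398). With the GC expectation this ratio was 0.030 ± 0.22 (permutation test, adjusted p = 0.694). AATAAA preceded the end in 69.8% of long genes (95% Wilson interval 67.9 to 71.7%) and 62.4% of short genes (60.1 to 64.7%).

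No difference in the gap was detected between classes of poly(A) signal. Ends with AATAAA held 0.340 per kb from -50 to +50 bp, ends with ATTAAA 0.274 per kb, and ends with neither hexamer 0.377 per kb (95% Poisson intervals 0.291 to 0.395, 0.186 to 0.389 and 0.282 to 0.495). The gap with AATAAA minus that with neither was -0.11 ± 1.13 on the log2 scale, with 13 of 22 chromosomes below 0 (permutation p = 0.659, adjusted p = 0.659). With this spread, a difference between the signal classes could not be told from none. GC content of the gap was 33.1% with AATAAA and 36.4% with neither hexamer.

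AATAAA inside introns, where no transcript of the annotation ends, had a low point at the same place. These were 511582 hexamers on the sense strand of introns of protein-coding genes, away from exons and start sites and placed at the median distance that AATAAA has from a 3' end. The window from -50 to +50 bp around them held 0.307 per kb, against 0.800 per kb in their far flanks. The lowest bin of 10 bp was -30 to -20 bp, the same as at 3' ends, and the highest downstream bin of 25 bp was again +75 to +100 bp, at 0.837 per kb and 1.37 times the GC expectation. The gap at 3' ends with AATAAA minus the gap at intronic AATAAA was -0.15 ± 0.56, with 10 of 22 chromosomes below 0 (permutation p = 0.23, adjusted p = 0.316). Measured from -100 to 0 bp the gap was deeper at 3' ends, with a difference of -0.51 ± 0.83 and on 18 of 22 chromosomes (permutation p = 0.00111, adjusted p = 0.00185), but with the 50-bp GC expectation this was 0.054 ± 0.72 (permutation test, adjusted p = 0.767). Relative to GC content, the window from -50 to +50 bp was at 0.587 times expectation at 3' ends with AATAAA and 0.641 times at intronic AATAAA.

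The start sites of the same transcripts gave the closest landmark of another kind, since promoters carry a region low in nucleosomes. Their -50 to +50 bp window held 0.474 per kb (95% Poisson interval 0.426 to 0.526) with 0.871 per kb in the far flanks. In this window the gap was deeper at 3' ends, with a difference of -0.70 ± 0.55, on 19 of 22 chromosomes (permutation p = 2e-05, adjusted p = 0.00011). The lowest 25-bp bin of the start sites within 500 bp lay outside it, at +225 to +250 bp with 0.347 per kb. Their far flanks were at 0.772 times the 200-bp GC expectation, against 0.963 times at 3' ends. The start sites had a much higher maximum behind them, at +125 to +150 bp, with 2.64 per kb and 2.81 times the GC expectation. The comparison changed with the correction for base composition. With the 200-bp expectation the difference was -0.10 ± 0.61 and did not pass (permutation test, adjusted p = 0.694), and with the 50-bp expectation it was 0.93 ± 0.58, so that the gap was deeper at start sites on 22 of 22 chromosomes (permutation test, adjusted p = 0.00011).

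**Figure D4:**
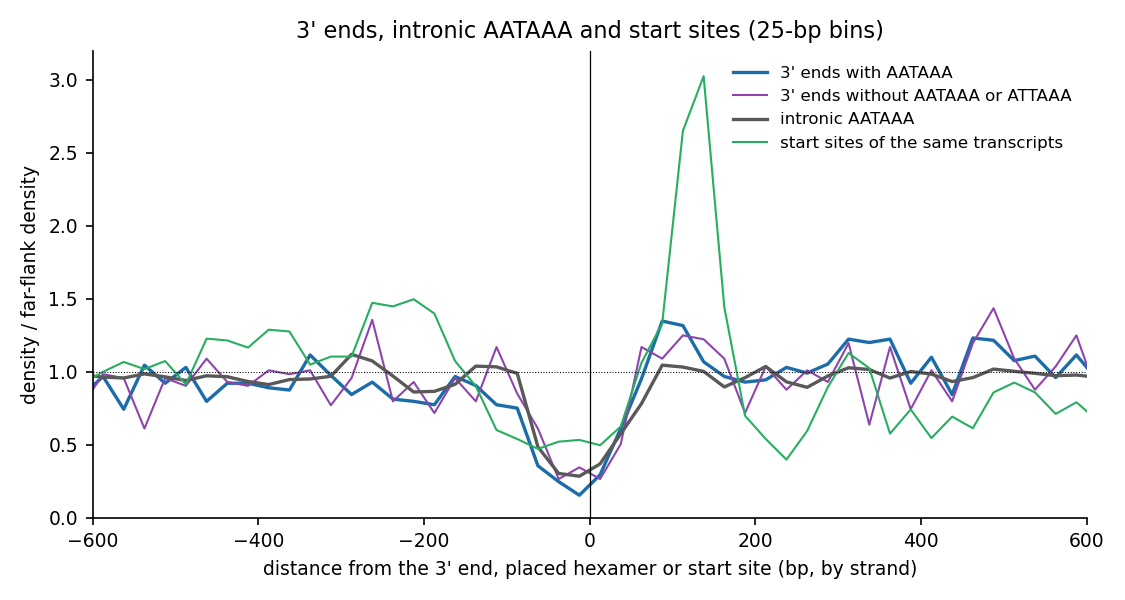
Density divided by the density of the far flanks (vertical axis, 25-bp bins) against distance in bp from 3' ends, from intronic AATAAA placed in the same way and from the start sites of the same transcripts. The lines of 3' ends and intronic AATAAA both dip from -50 to +50 bp, while start sites have a shallower dip there. Within 500 bp, start sites have their highest point at +125 to +150 bp and their lowest at +225 to +250 bp.

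Single members carried few positions. Within 2000 bp of the end the median was 3 positions, with quartiles of 2 and 6, and 664 members (8.87%) had none. From -50 to +50 bp, 245 members (3.27%, 95% Wilson interval 2.89 to 3.70%) had a position, while 1198 (16.01%) had one in the upstream flank and 1418 (18.9%) in the downstream flank. Both flanks but not the gap were filled in 300 members (4.01%). The gap is therefore a property of the sum over many ends, and a single end without a position in it does not stand apart from the other 3' ends.

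Genes of 4 lists were looked up by name, and 48 of them were members. None of the 48 had a position from -50 to +50 bp, a count that allows a share of up to 6.25% and so includes the 3.27% of all members. Of retinal pigment epithelium genes, 14 of 32 were members, with 67 positions within 2000 bp and a median of 4 per member. RPE65, the isomerase of the visual cycle, had none, and MITF, the master transcription factor of pigment cells, had 1. CLDN19, a tight junction claudin, had 14, of which the nearest lay 475 bp before and 633 bp behind the end. HTRA1, a secreted serine protease, had 10, with the nearest at 125 bp before and 90 bp behind the end. No position was called between them, where the ATTAAA printed above lies, which does not set HTRA1 apart from other ends. SLC45A2, a melanosome transporter, had 7, the nearest being 91 bp before the end. VEGFA, the vascular growth factor, also had 7, the nearest being 186 bp behind the end.

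Of genes for cytoskeleton, junctions and matrix, 10 of 32 were members, with 24 positions and a median of 2.5. SPARC, a matricellular glycoprotein, had 5, with the nearest 139 bp before the end. ITGB1, an integrin beta subunit, had 5 that all lay behind the end, the first at +141 and +176 bp. ITGAV, an integrin alpha subunit, and COL4A1, a basement membrane collagen chain, had 3 each, with the nearest at -269 and -258 bp. None of these lay within 100 bp of the end.

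Of neuronal synapse genes, 19 of 30 were members, with 70 positions and a median of 3, and 16 of the 19 were over 100 kb long. GRIA1, an AMPA receptor subunit, had 11, the nearest at -244 and +372 bp. DLG4, the postsynaptic scaffold PSD-95, had 7, including a pair at -101 and +86 bp that flanked its AATAAA. DSCAM, a cell adhesion molecule, had 6, and the nearest lay at +368 bp. Of genes for cleavage and polyadenylation factors, 5 of 22 were members, with 7 positions and a median of 1. PAPOLG, a poly(A) polymerase, had 3, RBBP6 had 2, CPSF2 and CSTF1 had 1 each, and the exonuclease XRN2, which degrades the RNA downstream of the cut, had none. With so few positions per member, the lists were not compared with each other, and the activity of these genes in ARPE-19 was not measured here.

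**Figure D5:**
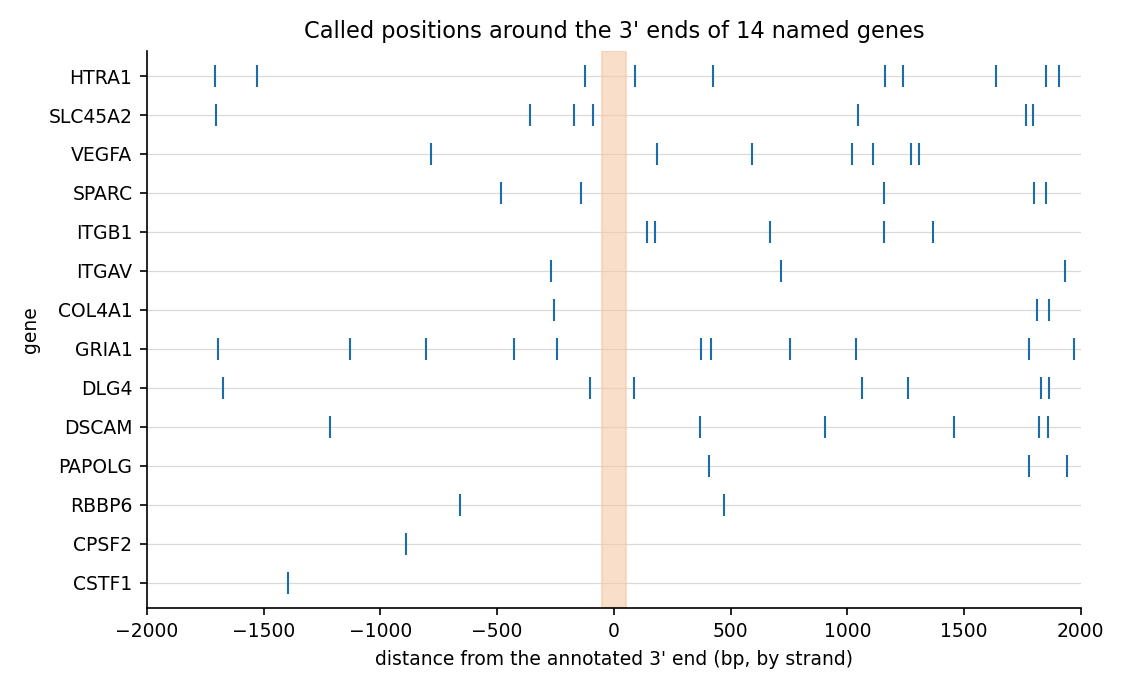
Each mark is 1 called position, at its distance in bp from the 3' end (horizontal axis, by strand) of the gene named on the vertical axis, for the 14 genes named from the 4 lists that have a poly(A) hexamer and are shown here. The shaded band from -50 to +50 bp is empty in all 14, and HTRA1 and DLG4 have a mark close to it on both sides.

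The members with the most positions within 2000 bp were KCNJ12 with 32, DUSP22 with 30, GPRIN2 with 28, ZDHHC11B with 24 and AP3B2 with 23. They stood far above the median of 3, and only 3 of all members had more than 26. KCNJ12, an inward rectifier potassium channel, had 27 of its 32 behind the end. Many neighbouring positions in these genes lay closer together than the DNA of 1 nucleosome, such as +259, +296 and +335 bp behind KCNJ12, so they cannot all be occupied on the same DNA molecule. Of these 5 genes, AP3B2, an adaptor complex subunit, was the one with a position in the gap, at +5 bp. Among long genes, KIF1A, a kinesin motor, and DAB2IP, a GTPase-activating protein, had the most with 21 each, and among short genes these were GPRIN2 and AMBP, the precursor of bikunin, with 20. DAB2IP and AMBP lie on chromosome 9, where the far flanks of members held 1.68 per kb, and AP3B2 on chromosome 15, with 1.27. Over all members this was 1.05 per kb. The other genes named in this paragraph lie on chromosomes with 0.848 to 1.16 per kb.

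A gap filled by 2 positions was found in 7 members, and the 5 that come first in chromosome order were named. In ITPKB, an inositol trisphosphate kinase, the positions were -4 and +44 bp, and in FAM178B -45 and -16 bp. In ZCCHC4, an RNA methyltransferase, they were +15 and +45 bp, in CEP120, a centriole protein, +19 and +49 bp, and in BRAF, a kinase of the MAP kinase pathway, +26 and +40 bp. All 5 had a poly(A) hexamer, AATAAA in ITPKB, CEP120 and BRAF and ATTAAA in FAM178B and ZCCHC4. Each pair is closer than the length of DNA in 1 nucleosome.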

How the data were processed

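MNase-seq positions of interphase ARPE-19 cells were read from the authors' deposited list, which names hg38 and gives a chromosome and a 1-bp interval per row, with no height, score or p-value. Bowtie2 and hg38 are named, without a role, per the submitters' processing notes. The position caller, its threshold, its fragment filter and any pooling of the 2 batches are not given in the sources used here, so the read depth behind the list is unknown. The batches may be technical. The list held 2634347 rows; its starts were read as 0-based, and 2558490 distinct positions on chromosomes 1-22 (0.928 per kb of determined bases) were used.

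Positions were counted by strand around each end. A log2 ratio of densities was computed per chromosome after adding 0.5 to each count, and was tested by flipping its sign over 22 chromosomes with 100000 draws, two-sided, with Benjamini-Hochberg adjustment over 11 comparisons and a threshold of 0.05. An alternative was adjusted over the comparisons it applies to: 5 for the other gap windows, 3 for the other downstream flank and for another gene length, 10 for other far flanks and for no other exon downstream, and 11 otherwise. The GC expectation used 2% bins. The code was tested on simulated data. Alternatives were other gap, flank and start-site distances, GC and 1-Mb expectations, merging of positions under 100 bp apart, and leaving out chromosomes 9 and 15 or empty 100-kb windows. Shared ends were counted once per member.

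Genes were named by rule: the 4 members with the most positions in each list, the 5 with the most within 2000 bp, the 5 with the most in the gap, and the 2 with the most among long and among short genes, ties going to the lower chromosome and start. RPE65, MITF and XRN2 were named after their values were seen, and 1 gene that the rule names is not reported here. The members and lists were chosen with earlier results of these data known. Transcription was not measured, and cleavage sites are annotated ones. Python 3.11.15, numpy 2.4.6, scipy 1.17.1, numba 0.67.0 and matplotlib 3.10.9 were used.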

Additional observations from a re-analysis of the deposited data

Results flagged for a closer look

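The gap at 3' ends minus the gap at the start sites of the same transcripts differed by a test of the difference itself, at -0.70 on the log2 scale, deeper at 3' ends on 19 of 22 chromosomes (sign-flip permutation p = 2e-05, adjusted p = 0.00011). Its direction turned with the 50-bp GC expectation.

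Positions also lay outside the chromosomes used for the comparisons. Chromosome X carried 74465 rows of the list, and 12 unplaced or alternate sequences carried 1388.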

How the results depend on the processing

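Of 145 alternative values of the 11 comparisons, 106 changed neither direction nor call. The gap stayed below 0 under every alternative run and missed the threshold under 1, from -100 to 0 bp with the 50-bp GC expectation (-0.16, permutation test, adjusted p = 0.052). The other values are log2, and the cause of each change was not tested.

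With the 200-bp GC expectation, the upstream flank turned to 0.27, the downstream flank to 0.094, the near sides to -0.19, the far sides to -0.0083, the far level of long against short genes to 0.030, the gap with AATAAA minus neither signal to 0.23 and the gap minus that at intronic AATAAA to 0.067, and the gap minus that at start sites lost its call at -0.10. With the 50-bp GC expectation the same comparisons, in that order, gave 0.21, 0.059, -0.10, 0.048 (call lost), 0.078, 0.27 and 0.12, and the gap minus that at start sites turned to 0.93. From -100 to 0 bp with the 200-bp expectation, the gap minus that at start sites was 0.33 and with AATAAA minus neither signal 0.052. With the 50-bp expectation these were 1.16 and 0.10, and the gap minus that at intronic AATAAA was 0.054.

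From -100 to 0 bp alone, long minus short genes came to -1.10 and 3' ends minus intronic AATAAA to -0.51, both past the threshold. From -100 to +100 bp the gap minus that at start sites was -0.23 and lost its call. With flanks of 500 to 1000 bp the downstream flank was 0.017, and the far sides (0.11) and the far level by gene length (-0.13) lost their calls. With start sites over 10 kb away the downstream flank was 0.0030, its difference by gene length -0.40 and that of the gap -0.90, both past the threshold, and the far level by gene length fell short at -0.058. Over 2 kb away the downstream flank was 0.015 and the gap by gene length -0.60, past the threshold. The +50 to +150 bp flank, added after the data were seen and placed on the highest bins, was 0.16, a value that tests nothing. The far level by gene length lost its call in 1-Mb windows (-0.039), after merging (-0.10) and with no other exon downstream (-0.11), where the upstream flank passed at -0.13; intronic AATAAA was not run there.

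No paired analysis was possible because the list does not tell the batches apart, and neither batch was left out. Depth and fragment counts are unknown, and in the main comparison the splits by gene length rest on 57 to 65 positions in the gap. With start sites over 10 kb away they rest on fewer ends, 446 of short and 1428 of long genes, so the 0.5 added to each count weighs more there.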

Other observations

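The length of the last exon went along with the density in the gap. Ends of last exons under 1 kb held 0.507 positions per kb from -50 to +50 bp (95% Poisson interval 0.412 to 0.618, 1951 members), while those of 1 to 3 kb held 0.273 (0.216 to 0.340, 2892 members) and those over 3 kb held 0.280 (0.220 to 0.352, 2640 members). Relative to the GC expectation these were 0.650, 0.455 and 0.565 times. The highest downstream bin of the short last exons was +75 to +100 bp, with 1.68 per kb and 1.72 times expected.

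In 407 members (5.44%) a gene on the other strand ended within 2000 bp behind the end. These convergent ends had 12 positions in the gap, or 0.295 per kb (95% Poisson interval 0.152 to 0.515), against 0.337 per kb for all members, a difference within counting error. Their far flanks held 1.13 per kb.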
